A study of Mus musculus with 8 samples.

Results

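Wnt proteins are secreted, lipid-modified ligands that bind Frizzled receptors together with the coreceptors LRP5 and LRP6. In the canonical branch this stabilises β-catenin, which acts with TCF/LEF factors on target genes, several of which feed back on the pathway. R-spondins raise the response by keeping receptors at the cell surface, and secreted antagonists such as the SFRP and DKK proteins lower it. In skin the pathway is known for its part in hair follicle development, in dermal fibroblast identity and in fibrosis. The genes described here are Wnt ligands, receptors, antagonists and targets. They come from a table of 15111 genes measured in dermal fibroblasts with and without targeted deletion of *Tgfb1*. They were chosen by a rule on gene symbols: Wnt, Frizzled, Sfrp, Dkk and R-spondin genes, *Lrp5*, *Lrp6*, *Porcn*, *Wif1*, *Axin1*, *Axin2*, *Lef1*, *Tcf7*, *Tcf7l1*, *Tcf7l2*, *Znrf3*, *Rnf43*, *Nkd1*, *Nkd2* and *Notum*. Of 56 protein-coding genes that these names cover in the GENCODE M21 annotation, 37 were in the table. *Dkk1*, *Dkk4*, *Fzd9*, *Notum*, *Rnf43*, *Sfrp4*, *Sfrp5*, *Wif1*, *Wnt1*, *Wnt3*, *Wnt3a*, *Wnt6*, *Wnt7a*, *Wnt7b*, *Wnt8a*, *Wnt8b*, *Wnt9b*, *Wnt10a* and *Wnt10b* were not analysed here.

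The fibroblasts came from back skin of tamoxifen-fed mice aged 10 weeks and were kept in serum replacement medium on fibronectin for 72 h. In TGFβ1FKO mice (Tgfb1fl/fl:Col1a2-CreERT) both *Tgfb1* alleles are floxed, and a Cre recombinase that tamoxifen activates is driven by *Col1a2* sequences, which targets fibroblasts. The control genotype was Tgfb1fl/fl, which lacks the Cre transgene, and these mice also received tamoxifen in their feed. Each group had 4 poly(A) libraries, with between 16988998 and 21806579 reads on the listed genes in control libraries and between 17445002 and 23071528 in TGFβ1FKO libraries. The labels do not say whether each library came from a separate animal, so p-values measure the spread between these libraries, which may be technical. In the deleted gene itself, *Tgfb1*, control libraries held 1401, 1298, 1483 and 1314 normalised counts and TGFβ1FKO libraries 326, 260.0, 228 and 295. All 4 TGFβ1FKO libraries were far below every control library, at 20.2% of the control mean (log2 fold change −2.31, SE 0.10, adjusted p = 1.53e-07 in limma's test).

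Fibroblast markers were abundant in every library. All 8 were measured, and their summed normalised counts were 1471377 in control and 1487035 in TGFβ1FKO cultures on average, with *Col1a1* as the most abundant. All 8 Schwann cell markers analysed here had lower means in TGFβ1FKO cultures (median log2 fold change −2.01), with *Sox10* (adjusted p = 0.00499) and *Foxd3* (adjusted p = 0.00757) passing limma's test. Their sums were 2501, 2327, 2493 and 1733 in control and 1845, 965, 911 and 1300 in TGFβ1FKO libraries, to which *Ngfr* (log2 fold change −0.65) contributed most. Without *Ngfr* the sums were 737, 942, 1107 and 482 in control and 332, 237, 289 and 277 in TGFβ1FKO libraries, and the groups did not overlap. Endothelial markers were also lower in mean in 10 of 10 genes, none of which passed the test. Their sums were 737, 907, 859 and 593 in control and 571, 629, 575 and 593 in TGFβ1FKO libraries, with *Tek* as the most abundant. The keratinocyte list had 5 of 10 genes measured, with *Krt5* and *Krt14* not analysed here. Its sum averaged 201 in control and 230.3 in TGFβ1FKO cultures, with *Sfn* leading, and 124 and 159 without *Sfn*. Of its 5 genes, 3 had a log2 fold change below 0 and none was called. *Dsp* of this list averaged 22.2 and 44.8, with every TGFβ1FKO library above every control library (log2 fold change 1.01, adjusted p = 0.334 in limma's test). Macrophage markers were represented by 3 of 9 genes, led by *Lyz2* and without *Ptprc* or *Adgre1*, and averaged 496 and 425. Melanocyte (3 of 7 genes, led by *Mitf*, 259 and 264) and pericyte lists (6 of 7, led by *Notch3*, 1650 and 1505) held no called gene. Without *Notch3* the pericyte sums averaged 1033 in control and 778 in TGFβ1FKO cultures, and 4 of the 6 pericyte genes had a log2 fold change below 0. Adipocyte and skeletal muscle lists were each represented by 1 gene, *Fabp4* (31.5 and 17.6) and *Des* (68.8 and 58.5). Dermal papilla genes (7 of 8, led by *Vcan*) summed to 14183 and 14635, and to 4870 and 4186 without *Vcan*. Their median log2 fold change was −0.29, with 4 of 7 below 0 and none called. *Sox2* of this list averaged 27.3 in control and 4.57 in TGFβ1FKO cultures, with every TGFβ1FKO library below every control library (log2 fold change −2.21, adjusted p = 0.130 in limma's test). In bulk cultures, fewer cells of a type and less RNA per cell cannot be told apart.

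**Figure D1:**
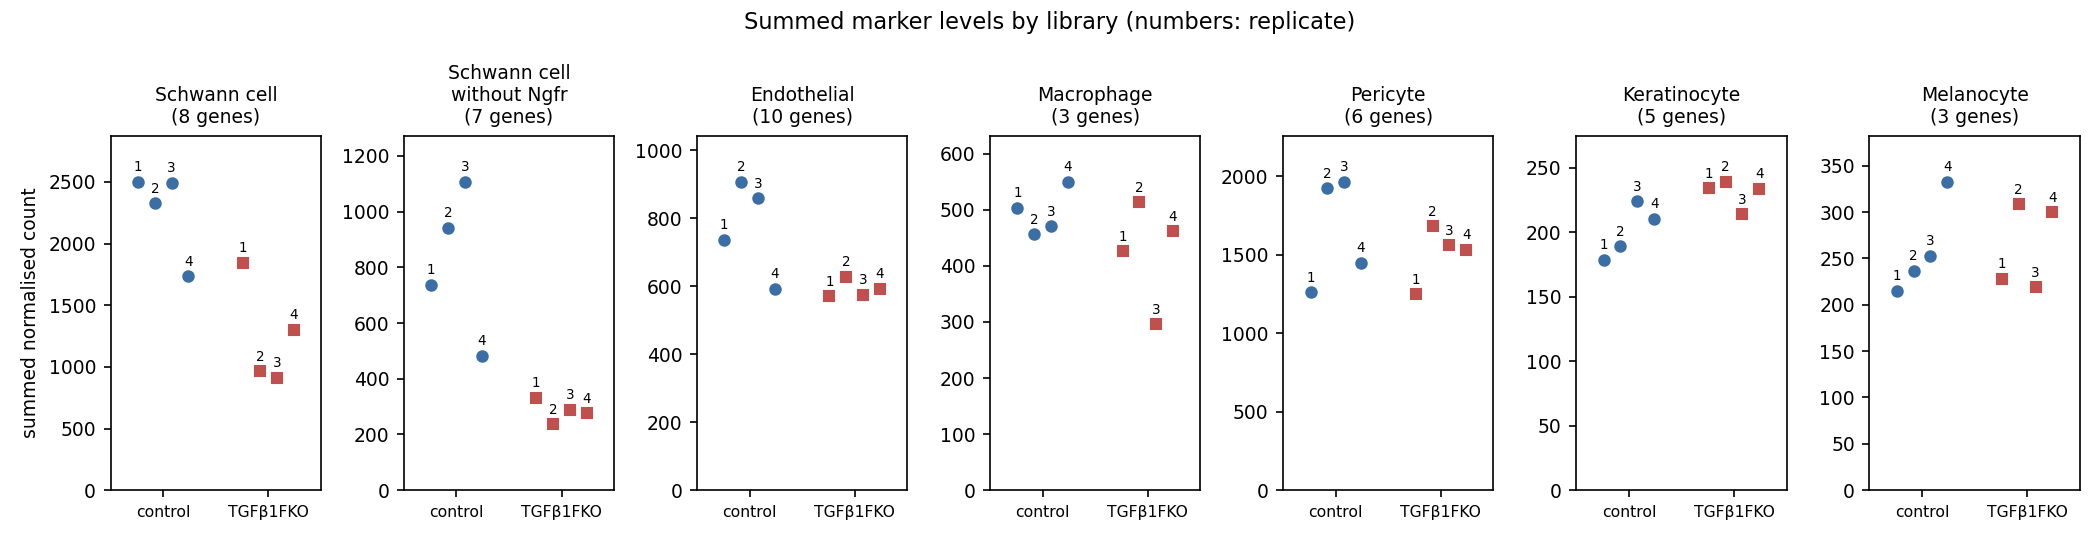
Summed normalised counts of cell type markers in each library of the control (blue circles) and TGFβ1FKO groups (red squares). Numbers beside the points are replicate numbers and the vertical axes start at 0. Schwann cell sums without *Ngfr* reach from 482 to 1107 in control libraries and from 237 to 332 in TGFβ1FKO libraries, while sums with *Ngfr* overlap.

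None of the 37 Wnt genes was called between the groups in limma's test, which required a Benjamini-Hochberg adjusted p under 0.05 over all genes and an absolute log2 fold change over 0.6. Over all genes, 13 were called, which is 0.086% of those tested. At an unadjusted p under 0.05 there were 3 Wnt genes, *Rspo3*, *Sfrp2* and *Sfrp1*, which is 8.11% of the 37 against 7.46% of all genes. All 3 had lower means in TGFβ1FKO cultures, and 3.87% of all genes had such a p with a lower mean. The groups did not overlap in 1 Wnt gene, *Rspo3*, which is 2.70% of the 37 against 3.79% of all genes. Of the 37 genes, 20 had a log2 fold change below 0 and 17 above, with a median of −0.01 where the median of all genes was 0.003. The median was 0.08 without control replicate 4. For 23 genes (62.2%, against 76.8% of all genes) the absolute log2 fold change was under 0.2, and for 20 genes (54.1%, against 72.2%) the 95% confidence interval lay wholly between −0.6 and 0.6. The number at an unadjusted p under 0.05 was 6 without control replicate 1 and 6 without TGFβ1FKO replicate 1. *Rspo3*, *Sfrp1* and *Sfrp2* were among them each time. *Sfrp1* had no such p without control replicate 2 or 4 or without TGFβ1FKO replicate 2 or 4. It also had none in a fit without a trend of the variance on the mean. In the whole table the number of called genes was 32 without control replicate 4, 7 without control replicate 1, 6 without control replicate 2, and 5 without control replicate 3 or without TGFβ1FKO replicate 2 or 4.

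**Figure D2:**
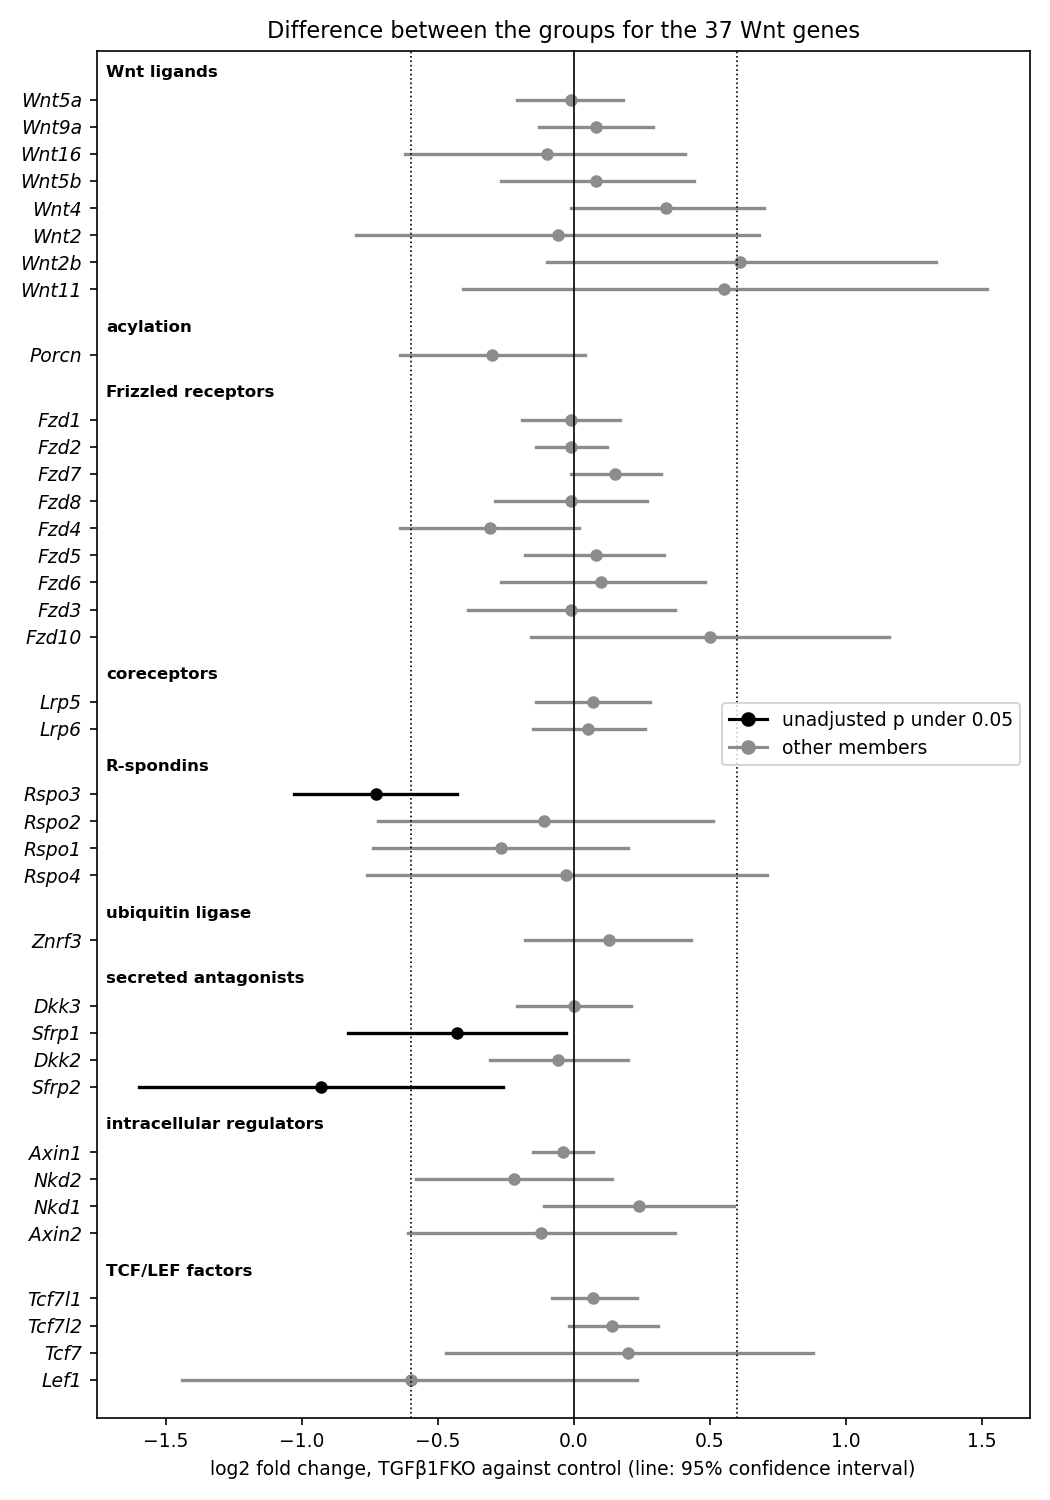
Log2 fold change of each of the 37 Wnt genes in TGFβ1FKO against control cultures, grouped by role and ordered within a role by level per kilobase. Points are limma's estimates, horizontal lines 95% confidence intervals, dotted lines the threshold of 0.6 in either direction, and black marks *Rspo3*, *Sfrp1* and *Sfrp2*, whose intervals leave out 0.

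*Rspo3* encodes a secreted R-spondin, which binds LGR receptors and the ubiquitin ligases ZNRF3 and RNF43 and so protects Frizzled receptors from removal. Its normalised counts were 155, 173, 155 and 145 in control libraries 1 to 4 and 100.3, 78.7, 116 and 85.3 in TGFβ1FKO libraries 1 to 4. Every TGFβ1FKO library was below every control library, and the group means were 157 ± 11.7 in control and 95.2 ± 16.7 in TGFβ1FKO cultures (SD, n = 4). The TGFβ1FKO mean was 60.6% of the control mean, a log2 fold change of −0.73 with a 95% confidence interval from −1.03 to −0.43. The adjusted p of limma's test was 0.103 (unadjusted 0.000182), which missed the threshold, and the two-sided exact permutation p was 0.0286, the smallest that 4 libraries against 4 can give. With weights that let a library far from its group count less, a setting tried after the data had been seen, *Rspo3* was called at an adjusted p of 0.0474. Over all settings its adjusted p ran from 0.0474 to 0.365 and its log2 fold change from −0.83 to −0.65. Schwann cell and endothelial marker sums were also lower in TGFβ1FKO cultures on average, the Schwann cell sum without *Ngfr* in every TGFβ1FKO library, and their part in the *Rspo3* values was not tested. *Rspo3* lies at chr10:29452416-29535867 on the minus strand of GRCm38. The antisense gene *Gm48159* shares exon bases with it, and the libraries do not keep the strand. The same limit holds for *Axin2*, *Fzd5*, *Fzd6*, *Lef1*, *Sfrp2*, *Tcf7l1*, *Wnt5a* and *Wnt11*, which also share exon bases with an antisense gene.

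The other R-spondins overlapped between the groups. *Rspo2* held 80.0, 124, 159 and 215 normalised counts in control libraries and 99.3, 191, 92.2 and 145 in TGFβ1FKO libraries, so that the ranges of the groups lay largely on top of each other (log2 fold change −0.11, SE 0.28). *Rspo1* and *Rspo4* had fewer than 50 counts in every library, with log2 fold changes of −0.27 and −0.03. Per kilobase of merged exons, the R-spondins summed to 93.6, 104, 117 and 116 in control libraries and to 74.3, 84.5, 86.6 and 82.9 in TGFβ1FKO libraries, and these sums did not overlap between the groups. Without *Rspo3* they overlapped, at 43.5, 48.2, 66.6 and 69.3 in control and 41.8, 59.1, 49.0 and 55.3 in TGFβ1FKO libraries. *Rspo3* made up 47.7% of this sum in control and 37.6% in TGFβ1FKO cultures on average, and *Rspo2* 25.7% and 31.3%. *Znrf3*, a membrane ubiquitin ligase that removes Frizzled receptors and is itself a feedback target of the pathway, held 124, 137, 134 and 192 counts in control and 146, 174, 164 and 148 in TGFβ1FKO libraries. All 4 TGFβ1FKO values lay within the control range (log2 fold change 0.13, SE 0.14). Its log2 fold change was 0.05 without control replicate 1, 0.26 without control replicate 4 and 0.08 without TGFβ1FKO replicate 2.

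**Figure D3:**
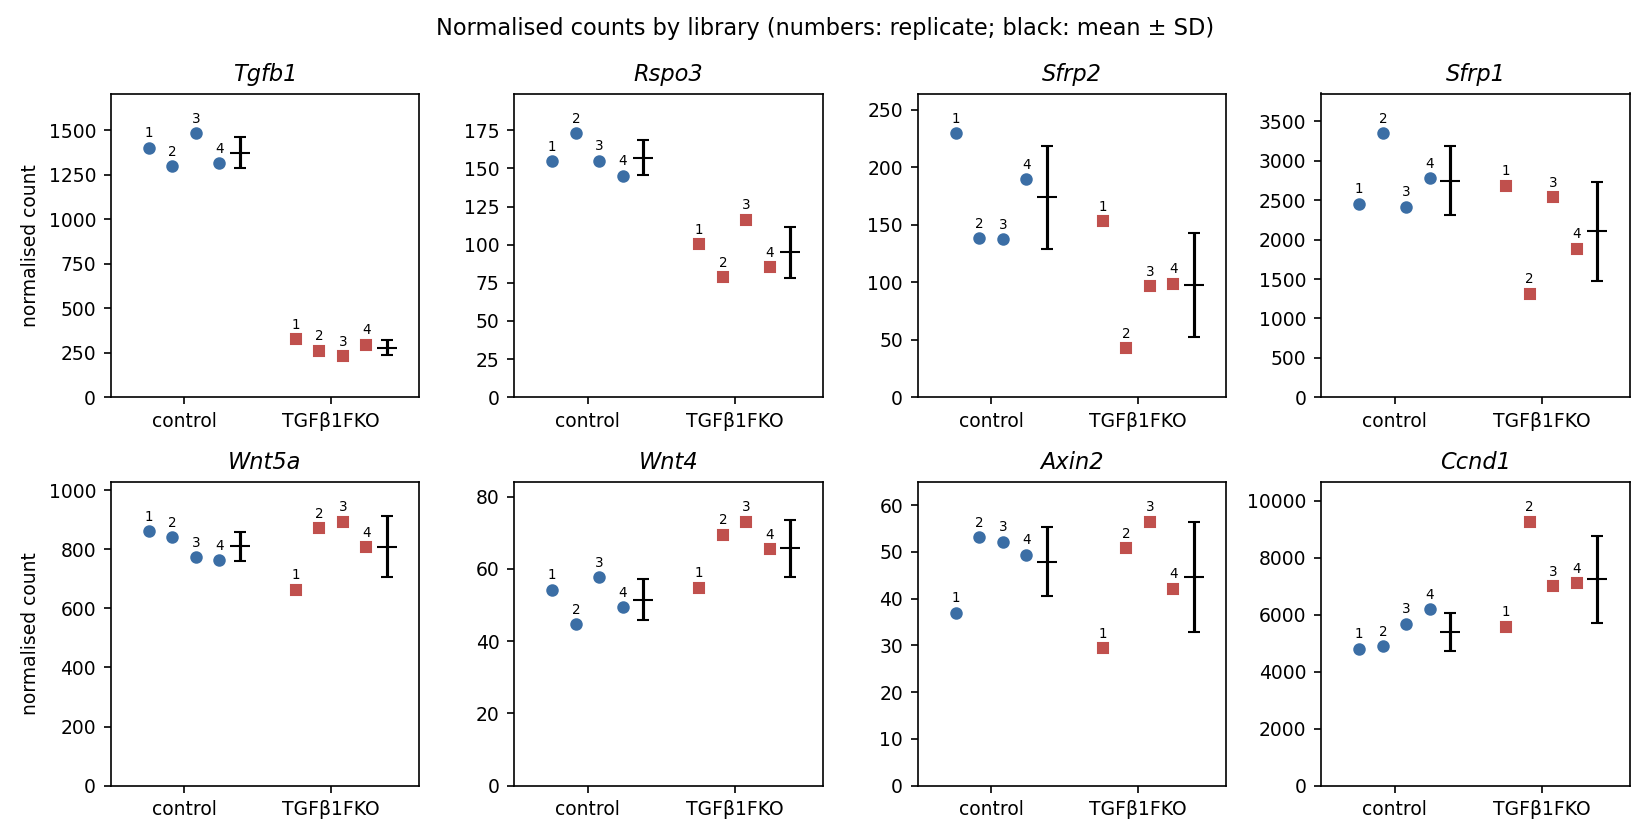
Normalised counts of *Tgfb1*, 6 Wnt genes and *Ccnd1* in each control (blue circles) and TGFβ1FKO library (red squares), with replicate numbers beside the points, black bars for the group mean ± SD, and axes that start at 0. *Tgfb1* and *Rspo3* are the panels in which the groups do not overlap, while *Wnt4* and *Axin2*, picked after their values were seen, show overlapping groups.

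Secreted antagonists held the other Wnt genes with an unadjusted p under 0.05. *Sfrp2* and *Sfrp1* encode secreted Frizzled-related proteins, which bind Wnt ligands outside the cell. On GRCm38 *Sfrp2* lies at chr3:83766321-83774316 and *Sfrp1* at chr8:23411502-23449632, both on the plus strand, and the antisense gene *Gm26771* shares exon bases with *Sfrp2*. *Sfrp2* had 229.7, 138, 138 and 189.6 normalised counts in control libraries and 153, 42.5, 96.3 and 98.6 in TGFβ1FKO libraries. TGFβ1FKO replicate 1 lay above control replicates 2 and 3, and the other 3 TGFβ1FKO libraries lay below all controls. The group means were 174 ± 44.6 and 97.6 ± 45.2 (SD, n = 4), a log2 fold change of −0.93 (95% confidence interval −1.60 to −0.26, adjusted p = 0.536 in limma's test, two-sided exact permutation p = 0.0857). *Sfrp1* had 2454, 3352, 2416 and 2779 counts in control libraries and 2686, 1311, 2535 and 1887 in TGFβ1FKO libraries. TGFβ1FKO replicates 1 and 3 lay within the control range, while replicates 2 and 4 were below it. The log2 fold change was −0.43 (95% confidence interval −0.83 to −0.03, adjusted p = 0.654 in limma's test, two-sided exact permutation p = 0.20). TGFβ1FKO replicate 2 was the lowest of the 8 libraries in *Rspo3*, *Sfrp2* and *Sfrp1* alike. Without it the log2 fold change was −0.65 for *Rspo3*, −0.58 for *Sfrp2* and −0.22 for *Sfrp1*.

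*Dkk3*, a member of the Dickkopf family whose action on the pathway differs from that of the classic members, was the most abundant of the 37 genes per kilobase. Its counts were 7594, 7042, 7342 and 9083 in control and 6871, 9255, 7064 and 8003 in TGFβ1FKO libraries, and the group means of 7765 and 7798 were almost alike (log2 fold change 0.00, SE 0.10). *Dkk2*, which binds the LRP coreceptors, had between 731 and 1038 counts per library (log2 fold change −0.06). The antagonists summed to 3273 ± 297 normalised counts per kilobase in control and 3089 ± 190 in TGFβ1FKO cultures (SD, n = 4). *Dkk3* made up 70.5% and 74.9% of this sum, *Sfrp1* 19.3% and 15.8%, and *Sfrp2* 2.46% and 1.5%. In TGFβ1FKO replicate 2 the share of *Sfrp1* was 8.97%, where the other libraries had between 13.8% and 24.5%.

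Sequences near the start sites were read for members with such a p and for members holding a TCF/LEF motif. In RefSeq promoters of GRCm38.p6, which run from 250 bases before to 50 after a start site, 23 of the 37 members matched, with 31 promoters; *Rspo3* and *Sfrp1* did not. The motif CTTTGAT, bound by TCF/LEF factors, was searched on both strands and occurred in 2 of these 31 promoters (6.45%), 1 of *Wnt5b* and 1 of *Wnt11*, and in 3.73% of all 32851 promoters. The palindromic Smad motif GTCTAGAC occurred in 0 of the 31 and in 0.213% of all promoters. The *Sfrp2* promoter (chr3:83766071-83766370, plus strand, 66.0% G and C) held neither motif. The *Wnt5b* promoter (chr6:119449337-119449636, minus strand) belongs to a start site inside the annotated span of the gene, and the *Wnt11* promoter lies at chr7:98834862-98835161 on the plus strand. They are shown 5′ to 3′ on the strand of the gene, *Sfrp2* as the member with the lowest log2 fold change and the others for their motif, whose letters are in capitals.
Sfrp2: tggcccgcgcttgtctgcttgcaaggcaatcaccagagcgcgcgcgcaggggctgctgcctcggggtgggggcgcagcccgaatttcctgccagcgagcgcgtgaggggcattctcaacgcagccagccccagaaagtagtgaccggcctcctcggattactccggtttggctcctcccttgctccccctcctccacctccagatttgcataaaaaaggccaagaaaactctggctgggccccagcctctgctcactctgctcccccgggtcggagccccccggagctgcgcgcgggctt
Wnt5b: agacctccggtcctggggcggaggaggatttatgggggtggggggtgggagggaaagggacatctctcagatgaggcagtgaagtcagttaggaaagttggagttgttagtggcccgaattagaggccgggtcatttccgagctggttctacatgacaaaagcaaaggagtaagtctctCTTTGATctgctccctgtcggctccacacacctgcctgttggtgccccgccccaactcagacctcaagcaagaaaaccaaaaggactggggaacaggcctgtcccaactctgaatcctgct
Wnt11: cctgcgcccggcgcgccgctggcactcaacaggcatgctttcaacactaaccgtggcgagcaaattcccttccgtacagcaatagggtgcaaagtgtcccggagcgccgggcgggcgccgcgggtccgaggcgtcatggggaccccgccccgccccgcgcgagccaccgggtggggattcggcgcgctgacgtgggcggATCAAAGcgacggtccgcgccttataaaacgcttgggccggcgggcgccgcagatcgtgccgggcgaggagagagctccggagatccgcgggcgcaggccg

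Of the Wnt ligands, 8 were measured. *Wnt5a*, best known for signalling without β-catenin, had the highest level per kilobase, with 861, 842, 774 and 763 normalised counts in control and 663, 871, 894 and 807 in TGFβ1FKO libraries. The TGFβ1FKO libraries were spread on both sides of the control range, and the group means of 810.0 and 808 were close (log2 fold change −0.01, SE 0.09). *Wnt9a* followed with 332, 255, 305 and 265 counts in control and 291, 317, 318 and 294 in TGFβ1FKO libraries, all 4 of them inside the control range (log2 fold change 0.08, SE 0.10). *Wnt16* and *Wnt5b* had log2 fold changes of −0.10 and 0.08. *Wnt4* held 44.6 to 57.7 counts in control and 54.7 to 73.1 in TGFβ1FKO libraries, with the groups overlapping in 1 TGFβ1FKO library (log2 fold change 0.34, SE 0.17, adjusted p = 0.671 in limma's test). *Wnt2*, *Wnt2b* and *Wnt11* had at most 29.9 counts in any library, and their log2 fold changes of −0.06, 0.61 and 0.55 had 95% confidence intervals that reached at least from −0.10 to 0.68. *Wnt5b* and *Wnt11*, which hold the TCF/LEF motif shown above, thus had means of 54.7 and 8.05 counts in control and 58.0 and 12.7 in TGFβ1FKO cultures. The ligands summed to 290 ± 16.5 normalised counts per kilobase in control and 300 ± 9.12 in TGFβ1FKO cultures (SD, n = 4), of which *Wnt5a* gave 35.7% and 34.5%.

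Ligand secretion needs the acyltransferase PORCN, which adds the lipid, and the carrier WLS. *Porcn* held 129, 184, 177 and 186 counts in control and 139, 175, 116 and 119.7 in TGFβ1FKO libraries, with control replicate 1 apart from the other controls. Its log2 fold change was −0.30 (95% confidence interval −0.64 to 0.04) and ran from −0.424 to −0.227 over all settings. It was −0.424 without control replicate 1 and −0.422 without TGFβ1FKO replicate 2, each with an unadjusted p under 0.05 in limma's test. *Wls* had between 7721 and 8816 counts in all libraries (log2 fold change −0.02, SE 0.05).

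Of the Frizzled receptors, 9 were measured, and all 9 overlapped between the groups, where 3.79% of all genes did not. *Fzd1* had 5409, 5700, 4904 and 6801 normalised counts in control and 5941, 5635, 5309 and 5625 in TGFβ1FKO libraries, and *Fzd2* had 3486, 3408, 3874 and 3905 in control and 3827, 3651, 3588 and 3473 in TGFβ1FKO libraries. In both receptors every TGFβ1FKO library was inside the control range, and both log2 fold changes were −0.01 (SE 0.08 and 0.06). Together they held 76.5% of the summed Frizzled level per kilobase in control and 75.8% in TGFβ1FKO cultures. The next receptors per kilobase were *Fzd7* (log2 fold change 0.15, 95% confidence interval −0.01 to 0.32) and *Fzd8* (−0.01), and *Fzd4*, *Fzd5*, *Fzd6*, *Fzd3* and *Fzd10* ranged from −0.31 to 0.50. The Frizzled sum was 3085 ± 280 normalised counts per kilobase in control and 3078 ± 105 in TGFβ1FKO cultures (SD, n = 4). *Lrp5* had 1344, 1574, 1475 and 1872 counts in control and 1447, 1850, 1608 and 1624 in TGFβ1FKO libraries, and its log2 fold change was 0.07 (SE 0.10). *Lrp6* had 1378, 1791, 1352 and 1802 counts in control and 1535, 1621, 1741 and 1599 in TGFβ1FKO libraries (log2 fold change 0.05, SE 0.09). For both coreceptors all TGFβ1FKO libraries lay inside the control range.

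**Figure D4:**
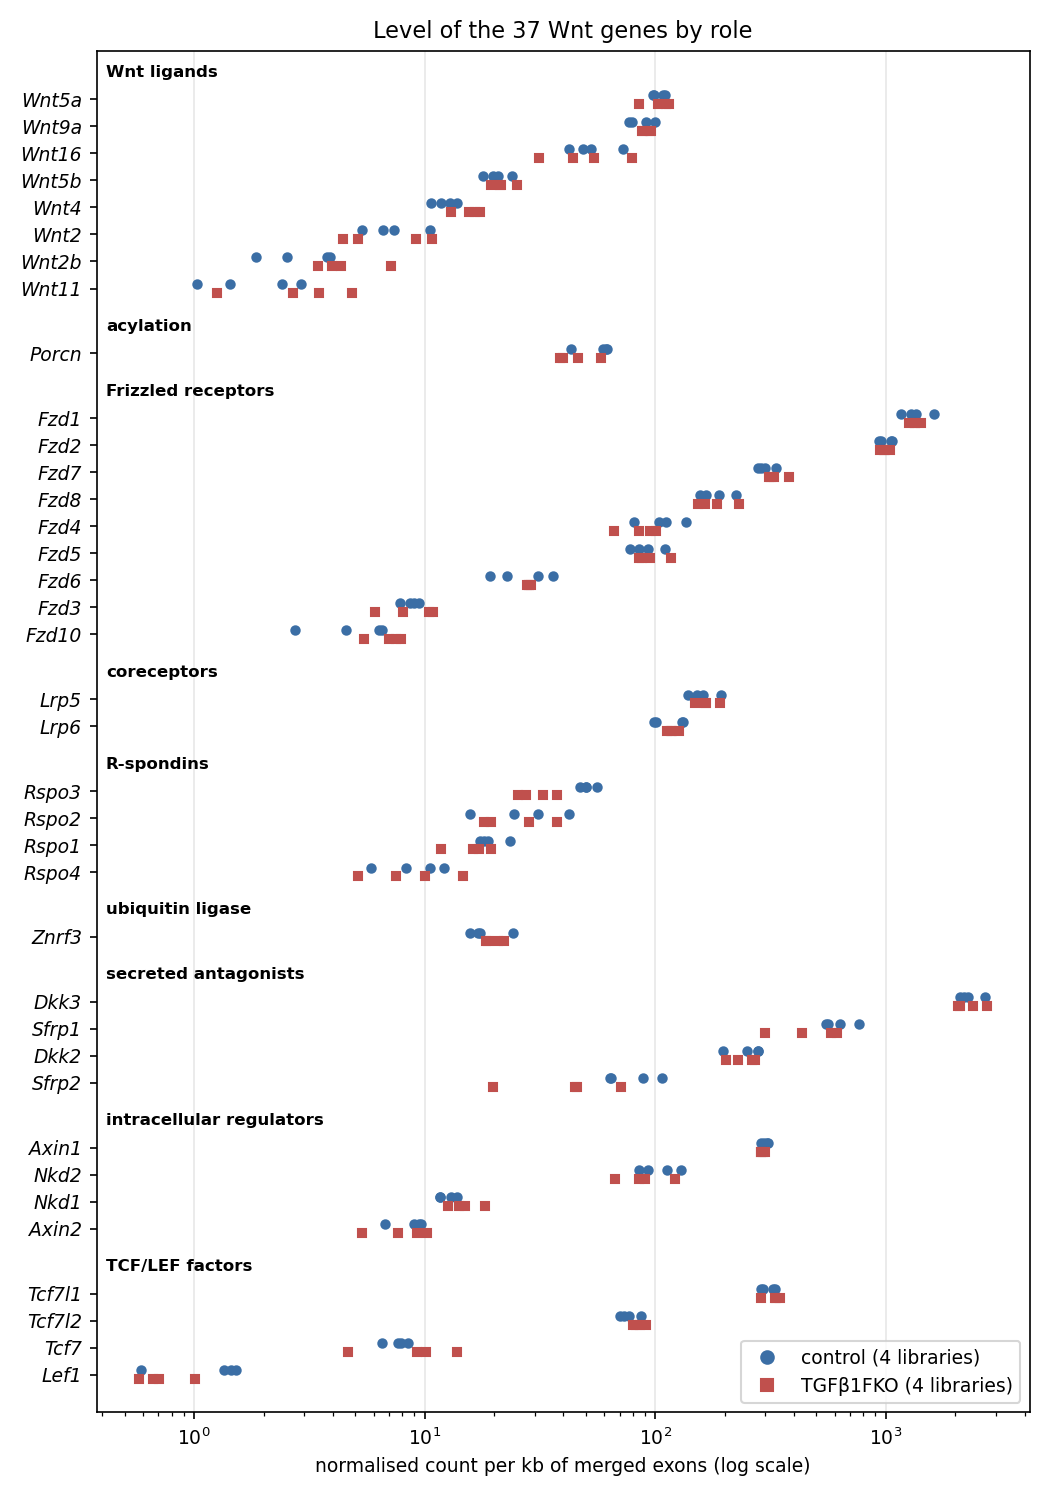
Normalised counts per kilobase of merged exons, on a log scale, of the 37 Wnt genes in 4 control (blue circles) and 4 TGFβ1FKO libraries (red squares), grouped by role and ordered by level. Mean levels over all libraries run from 0.982 for *Lef1* to 2317 for *Dkk3*, and the groups are separate for *Rspo3*.

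Inside the cell, AXIN1 is the scaffold of the complex that destroys β-catenin, AXIN2 is a feedback target with the same function, and the NKD proteins bind Dishevelled. *Axin1* had 1179, 1137, 1174 and 1105 normalised counts in control and 1099, 1100, 1118 and 1151 in TGFβ1FKO libraries (log2 fold change −0.04, 95% confidence interval −0.15 to 0.07). *Nkd2* had 410.4, 545, 626 and 448 counts in control and 324, 590.3, 409 and 438 in TGFβ1FKO libraries. Its libraries varied widely in both groups, with TGFβ1FKO replicate 1 the lowest of all and TGFβ1FKO replicate 2 below control replicate 3 only (log2 fold change −0.22, SE 0.17). This log2 fold change was −0.11 without control replicate 3, −0.08 without TGFβ1FKO replicate 1 and −0.37 without TGFβ1FKO replicate 2. Among TCF/LEF factors *Tcf7l1* led, with 1127, 1149, 1271 and 1297 counts in control and 1313, 1293, 1129 and 1369 in TGFβ1FKO libraries (log2 fold change 0.07, SE 0.07). *Tcf7l2* had 615, 677, 644 and 764 counts in control and 701, 797, 726 and 753 in TGFβ1FKO libraries, with control replicate 4 above 3 of the TGFβ1FKO libraries (log2 fold change 0.14, SE 0.08). *Lef1*, with at most 12 reads in any library, and *Tcf7* had log2 fold changes of −0.60 (95% confidence interval −1.44 to 0.23) and 0.20.

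Of the genes known as feedback targets of the canonical branch, 6 were measured: *Axin2*, *Lef1*, *Tcf7*, *Nkd1*, *Nkd2* and *Znrf3*. None had an unadjusted p under 0.05, where 7.46% of all genes did, and 3 had a log2 fold change below 0 and 3 above, ranging from −0.60 to 0.24. *Lef1* had such a p without control replicate 1, and *Nkd2* without TGFβ1FKO replicate 2. *Axin2*, the most widely used readout of the canonical branch, held 37, 53.1, 52.1 and 49.4 normalised counts in control and 29.4, 50.8, 56.5 and 42.1 in TGFβ1FKO libraries. Replicate 1 was the lowest in each group, and the log2 fold change of −0.12 had a 95% confidence interval from −0.61 to 0.37.

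The rest of the pathway was described from a list of 84 further genes, of which 72 were in the table. None was called in limma's test. At an unadjusted p under 0.05 there were 10, or 13.9% of the list against 7.46% of all genes. Of these, 4 had lower and 6 had higher means in TGFβ1FKO cultures, and the smallest adjusted p was 0.510. Without TGFβ1FKO replicate 2, *Ccnd1*, *Celsr1*, *Dact1* and *Cd44* kept an unadjusted p under 0.05, and the others of these 10 did not. Without control replicate 3, *Myc*, *Ptk7*, *Cthrc1*, *Apc* and *Lgr5* lost it. The groups did not overlap in 0 of the 72, against 3.79% of all genes, and the median log2 fold change was 0.01. The 3 highest per kilobase were *Wisp2* (4001, 5329, 6855 and 5366 normalised counts in control and 4320, 5434, 5676 and 4869 in TGFβ1FKO libraries), the heparan sulphate proteoglycan gene *Gpc4* and *Ctnnb1*, which encodes β-catenin. *Ctnnb1* held 9394, 10030, 9432 and 9839 counts in control and 9712, 9560, 9792 and 9256 in TGFβ1FKO libraries (log2 fold change −0.01, 95% confidence interval −0.12 to 0.09). *Gpc4* had 4895, 5066, 4394 and 5119 counts in control and 4890, 5388, 5107 and 4828 in TGFβ1FKO libraries (log2 fold change 0.05). These 3 genes overlapped widely between the groups.

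Against 7.46% of all genes, an unadjusted p under 0.05 was found in 4 of 15 known targets (26.7%). It was also found in 2 of 7 further secreted or membrane regulators (28.6%) and 2 of 13 other receptors (15.4%). Such a p was found in 1 of 10 planar polarity genes, 1 of 26 genes of the cytoplasmic core (3.85%) and 0 of 1 secretion gene. Without TGFβ1FKO replicate 2 the secreted regulators *Cthrc1* and *Draxin* and the receptors *Lgr5* and *Ptk7* lost it. Of the known targets, *Ccnd1*, *Cd44* and *Dact1* then kept it and *Myc* did not. *Ccnd1*, which encodes cyclin D1 of the cell cycle, had 4797, 4881, 5676 and 6184 normalised counts in control and 5577, 9261, 6987 and 7102 in TGFβ1FKO libraries. TGFβ1FKO replicates 2, 3 and 4 were above every control library and replicate 1 was not (log2 fold change 0.41, SE 0.13, adjusted p = 0.510 in limma's test). The adhesion receptor gene *Cd44* held 5871, 5038, 5100 and 4224 counts in control and 5326, 6388, 6297 and 5948 in TGFβ1FKO libraries (log2 fold change 0.25, SE 0.09). For *Myc* the counts were 1558, 1419, 1382 and 1428 in control and 1550, 1603, 1678 and 1544 in TGFβ1FKO libraries (log2 fold change 0.14, SE 0.06). In both genes control replicate 1 overlapped with TGFβ1FKO libraries. *Dact1*, whose product binds Dishevelled, had 618, 895, 646 and 817 counts in control and 712, 474, 544 and 544 in TGFβ1FKO libraries, TGFβ1FKO replicate 1 being the one that overlapped (log2 fold change −0.39, SE 0.13, adjusted p = 0.570 in limma's test).

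The receptor genes with an unadjusted p under 0.05 were *Lgr5*, an R-spondin receptor, and *Ptk7*, a coreceptor of planar polarity. *Lgr5* had 2017, 2481, 2161 and 3261 counts in control and 2611, 4807, 2495 and 3633 in TGFβ1FKO libraries, with TGFβ1FKO replicates 2 and 4 above all controls (log2 fold change 0.42, SE 0.19, and 0.24 without TGFβ1FKO replicate 2). *Ptk7* had 7106, 6804, 6431 and 6851 counts in control and 6974, 8061, 7704 and 7280 in TGFβ1FKO libraries (log2 fold change 0.14, SE 0.06). *Apc*, a scaffold of the destruction complex, had 1593, 1944, 1458 and 2055 counts in control and 1744, 2279, 2310 and 2146 in TGFβ1FKO libraries, 3 of which were above all controls (log2 fold change 0.27, SE 0.11). The secreted proteins CTHRC1 and draxin came from genes with lower means in TGFβ1FKO cultures. *Cthrc1* had 791, 1069, 927 and 774 counts in control and 809, 682, 767 and 741 in TGFβ1FKO libraries (log2 fold change −0.24, SE 0.10), which was −0.14 without control replicate 2. *Draxin* had 78.3, 89.2, 52.1 and 70.1 in control and 51.7, 49.7, 54.8 and 55.4 in TGFβ1FKO libraries (log2 fold change −0.42, SE 0.18). *Celsr1*, a cadherin of planar polarity, was close to the floor of 3 reads, with 6.88, 7.44, 15.5 and 4.94 counts in control and 2.03, 1.04, 5.81 and 0 in TGFβ1FKO libraries. Its log2 fold change of −1.82 (95% confidence interval −3.14 to −0.50) was −0.93 with a pseudocount of 5.

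**Figure D5:**
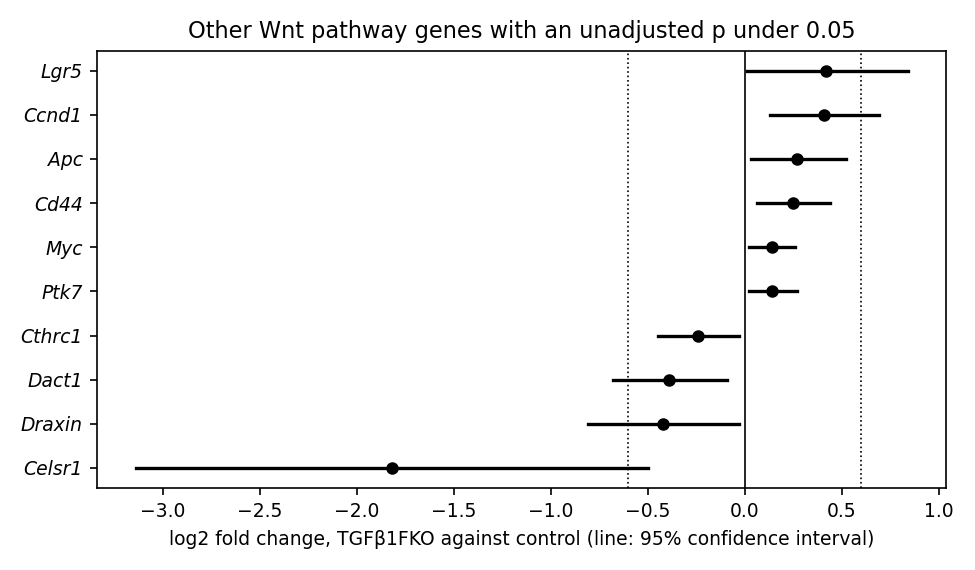
Log2 fold change of the 10 other Wnt pathway genes with an unadjusted p under 0.05, in TGFβ1FKO against control cultures. Points are limma's estimates, lines 95% confidence intervals and dotted lines the threshold of 0.6, and the smallest adjusted p among these genes was 0.510.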

How the data were processed

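The authors aligned paired-end reads of non-directional libraries with HISAT2 2.0.5, counted them with featureCounts 1.5.0-p3 and normalised them with DESeq2 1.42.0, per the submitters' processing notes. The deposited values are a signal that is never negative: normalised counts with 0.5 added. The authors' own comparison columns (fold changes and p-values) were not used. Here 0.5 was subtracted, 1 added as a pseudocount, and log2 values of all 15111 genes compared by limma's moderated test (version 3.58.1, R 4.3.3) with a trend of the variance on the mean. The fit was also run on simulated data with 200 changed genes, the outcome of which is not reported here. Named genes were also compared by two-sided exact permutation tests. Lengths are merged exons of GENCODE M21 (GRCm38), found for 15105 genes.

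Members and lists were chosen with earlier results of these data known. Some marker genes are not reported here. Values by library are given for members with an unadjusted p under 0.05 or groups without overlap and for the 2 highest per kilobase in each role, and for other pathway genes by the same test and the 3 highest. *Wnt4*, *Axin2* and *Wls* were added after their values were seen. Alternatives covered scaling (TMM), pseudocounts of 0.5 and 5, filters on the mean of 10 and 50, thresholds, a replicate block and each library left out. Fits without a trend and with array weights were added after seeing the data.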

Additional observations from a re-analysis of the deposited data

Results flagged for a closer look

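The normalised count of *Porcn* in control replicate 1 was 129, far from the other 3 control libraries, which held 177 to 186. Over the named genes 62 groups of 4 libraries were looked at and this was the 1 library that stood apart, where chance alone gives about 1 in 20 groups, or 3.1.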

How the results depend on the processing

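The number of called genes in the whole table, 13, was 4 with a mean of at least 50, 25 at an adjusted p under 0.1, 2 without a mean-variance trend, 31 with array weights, and 5 to 32 with 1 library left out. With the replicate number as a block it was 31, and *Sfrp2* then had an adjusted p of 0.101 (0.101 to 0.888 over its alternatives). The labels do not say whether libraries with the same number are paired. Over genes with a mean of at least 50, deviations of libraries with the same number correlated at 0.156, −0.134, 0.052 and 0.159. Those of libraries with different numbers correlated at −0.319 to 0.387. The number of called Wnt genes was 0 in 17 of 18 alternatives and 1 with array weights, *Rspo3*. At an unadjusted p under 0.05 there were 5 Wnt genes with array weights and 2 to 6 with 1 library left out. *Rspo3* and *Sfrp2* were among them in every alternative run. *Fzd7*, *Tcf7l2* and *Wnt4*, with higher means in TGFβ1FKO cultures, had such a p in some alternatives only. So did *Fzd4*, *Lef1*, *Nkd2* and *Porcn*, with lower means. The median log2 fold change of the Wnt genes ran from −0.022 to 0.078 with 1 library left out. For the other pathway genes 0 were called in 18 of 18 alternatives. *Tgfb1* was called in 16 of 16.

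The sign of some values near 0 changed. *Dkk3* was at −0.002 with TMM scaling, *Fzd1* at 0.013 and *Rspo2* at 0.029 with array weights. With 1 library left out, log2 fold changes ran from −0.083 to 0.081 for *Dkk3*, −0.079 to 0.078 for *Fzd1*, −0.046 to 0.019 for *Fzd2*, −0.005 to 0.154 for *Lrp5*, −0.020 to 0.118 for *Lrp6*, −0.357 to 0.115 for *Rspo2* and −0.062 to 0.082 for *Wnt5a*. *Wnt9a* (0.025 to 0.152) and *Tcf7l1* (0.040 to 0.132) kept their sign. The cause was not tested. *Celsr1* had no value with a mean of at least 10 or 50. The planned tests on counts with edgeR and DESeq2 were not run. Of the Wnt genes 9 had a mean under 50 normalised counts, where counting error limits what 4 libraries can show.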

Other observations

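The libraries at the extremes of the 37 Wnt genes were unevenly spread. TGFβ1FKO replicate 1 was the lowest of the 8 libraries in 10 (27.0%, against 10.2% of all genes) and the highest in 3 (8.11%, against 10.7%). Control replicate 4 was the lowest in 0 (15.5% of all genes) and the highest in 8 (21.6%, against 15.2%). TGFβ1FKO replicate 3 was the lowest in 1 (2.70%, against 12.5%) and the highest in 8 (21.6%, against 12.5%). TGFβ1FKO replicate 2 was the lowest in 6 (16.2%, against 13.7%) and the highest in 7 (18.9%, against 14.9%). TGFβ1FKO replicate 4 was the lowest in 1 (2.7%, against 8.81%) and the highest in 1 (2.7%, against 8.03%). Control replicates 1 and 3 were each the lowest in 7 (18.9%, against 12.1% and 15.5%) and the highest in 3 (8.11%, against 12.2% and 15.4%). Control replicate 2 was the lowest in 5 (13.5%, against 11.7%) and the highest in 4 (10.8%, against 11%).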
